A study of Mus musculus with 8 samples.

Results

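The genes described are those of oxidative phosphorylation, the 5 protein complexes of the mitochondrial inner membrane that make ATP, in mouse neuroblastoma cells. They were chosen by name: symbols starting with Nduf, Uqcr, Sdh, Atp5 or mt-, and Cox4 to Cox8, without Ndufa4l2 and without names ending in -ps or os. Of 55367 genes in the count table, 152 carried such a name, 9 of these were left out by name, and 34 of the remaining 143 had a mean CPM (counts scaled to a common library total) under 1 over the 6 libraries. The other 109 genes, all of which passed the filter on low counts and were tested among 15117 genes, are the members. They comprise 80 nuclear-encoded structural subunits, 13 mitochondrially encoded mRNAs, 2 mitochondrial rRNAs and 1 mitochondrial tRNA, 12 assembly factors and Cox7a2l, a factor that joins complexes III and IV into supercomplexes. The members nearest the threshold were mt-Nd4l at 1.02 CPM, Sdhaf1 at 1.35 CPM and mt-Atp8 at 1.35 CPM, and the nearest genes outside were Cox7c-ps1 at 0.268 CPM, Ndufb4c at 0.225 CPM and Cox6b2 at 0.125 CPM. Of the genes left out by name, Ndufa4l2 (53.6 CPM), Ndufb1-ps (19.9 CPM), Ndufa12-ps (4.55 CPM) and Cox5b-ps (2.61 CPM) were above it.

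Poly(A)-enriched RNA was sequenced from Neuro2a cells, an established mouse neuroblastoma line, after transfection of plasmids for CRISPR activation (CRISPRa). The CRISPRa cells received 750 ng of an sgRNA plasmid and 750 ng of a plasmid for sadCas9-VP64, a catalytically dead Cas9 fused to a transcriptional activator. The no-sgRNA control cells received the sadCas9-VP64 plasmid without an sgRNA, in an amount the labels do not give. Both groups thus carried the activator, and only CRISPRa carried an sgRNA. The labels do not say whether another plasmid took the place of the sgRNA plasmid in the controls. An effect of the sgRNA and one of the total plasmid amount therefore cannot be told apart. The counts analysed are those of replicates 2, 3 and 5 of CRISPRa and 2, 3 and 4 of no sgRNA, and nothing in the labels says whether replicates came from separate cultures, so p-values measure only the spread between these libraries.

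Electrons from NADH enter the respiratory chain at complex I (NADH dehydrogenase) and electrons from succinate at complex II (succinate dehydrogenase). They pass through complex III (cytochrome bc1) to complex IV (cytochrome c oxidase), and the proton gradient built by complexes I, III and IV drives complex V (ATP synthase). Complex II is encoded wholly in the nucleus, while each of the other complexes combines nuclear subunits with core subunits transcribed from mitochondrial DNA, so that the supply from both genomes has to be matched in mitochondria.

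Library totals ranged from 29739422 to 34248514 counts and the trimmed-mean (TMM) scaling factors from 0.978 to 1.01. Scn2a, the sodium channel gene at which the series is directed, had 7.81 ± 0.714 CPM in CRISPRa and 5.61 ± 1.31 CPM in no sgRNA (SD, n = 3), and with a log2 fold change of 0.48 (SE 0.19) it did not pass the test (edgeR adjusted p 0.0899). Of the 15117 genes tested, 2829 (18.7%) were called changed at an edgeR adjusted p under 0.05, 1398 (9.25%) lower and 1431 (9.47%) higher in CRISPRa, and the median log2 fold change was -0.01. All 20 genes of an interferon-stimulated list rose, with a median log2 fold change of 5.25. Of 11 markers of sympathoadrenal neuroblastoma, 10 were above 1 CPM, and their summed level was 2393 to 2615 CPM in CRISPRa and 2564 to 2677 CPM in no sgRNA. Phox2a, Hand2 and Isl1 were lower in every CRISPRa library than in every control, and Chga, Chgb and Uchl1 were higher. Of 6 fibroblast markers, 3 were above 1 CPM and Col3a1 was at 0, and their summed level was 14.7 to 21.5 CPM in CRISPRa and 28.8 to 31.7 CPM in no sgRNA. None of 4 leukocyte markers reached 1 CPM (Cd3e and Lyz2 were at 0), 2 of 5 glial markers did, and 2 endothelial markers summed to 7.47 to 10.95 CPM in CRISPRa and 9.55 to 13.0 CPM in no sgRNA. Of the endothelial pair, Cdh5 was higher in CRISPRa (1.48 to 2.14 CPM against 0.135 to 0.680 CPM), and the groups of Pecam1 overlapped. The part of these differences in the results below was not tested.

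Nuclear-encoded subunits were lower in CRISPRa across complexes I, III, IV and V, and mitochondrially encoded mRNAs were not. Of 80 nuclear-encoded subunits, 31 fell, none rose and 49 did not pass the test, and 75 had a negative log2 fold change, with a median of -0.23. The share called lower was 38.8%, beside 9.25% of all genes tested and 13.2% of the genes with a mean of at least 10 CPM. Of 13 mitochondrially encoded mRNAs, 1 rose (mt-Cytb), none fell, and 11 had a positive log2 fold change, with a median of 0.10 that turned to -0.02 with the GC trend of each library removed. Neither rRNA nor the tRNA passed the test, nor did any of the 12 assembly factors, whose median was -0.11 and of which 11 had a negative value. Over all 109 members, 32 fell, 1 rose and 76 did not pass. The 3 CRISPRa libraries lay below all 3 no-sgRNA libraries for 51 members and above them for 3, against 18.7% and 17.7% of all genes tested. With 1 library left out in turn, 18 of the 31 nuclear-encoded subunits were called lower in all 6 fits, among them all 4 of complex III, 6 of 12 in complex I, 5 of 10 in complex IV and 3 of 5 in complex V. In bulk RNA, a change in the share of cells that carry a transcript and a change in the amount per cell cannot be told apart.

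**Figure D1:**
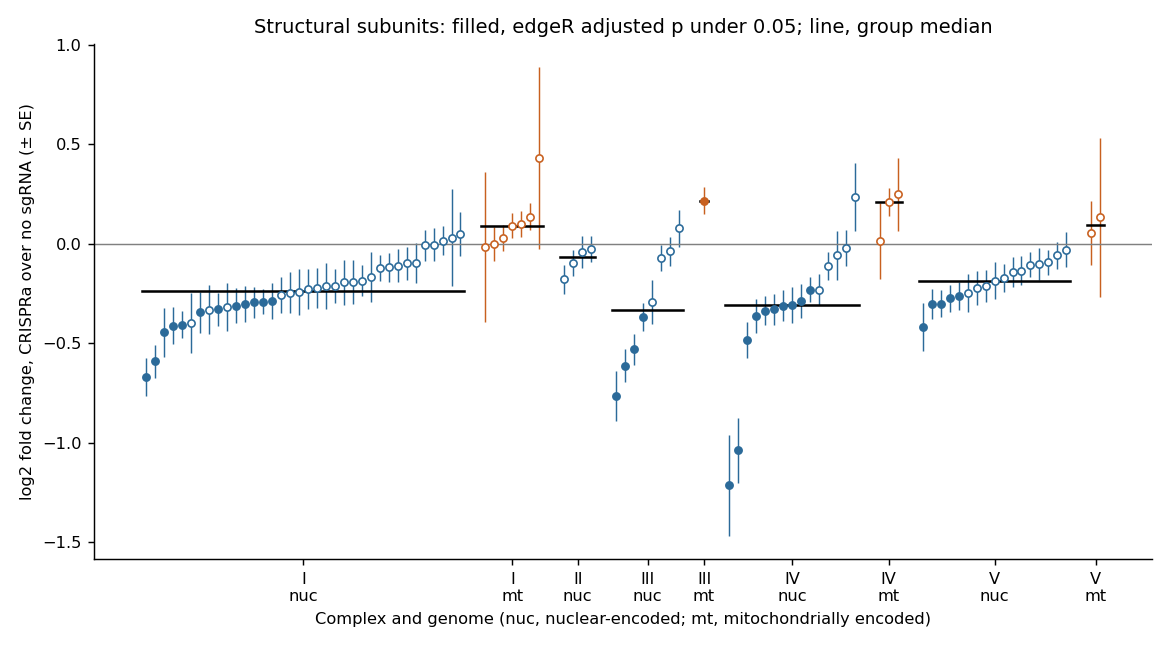
Log2 fold change (CRISPRa over no sgRNA) with its standard error for each structural subunit, grouped along the horizontal axis by complex and by genome; filled points passed an edgeR adjusted p under 0.05 and black lines are group medians. The nuclear-encoded medians lie at -0.24 for complex I, -0.07 for II, -0.33 for III, -0.31 for IV and -0.19 for V, and 11 of 13 mitochondrially encoded mRNAs lie above 0, of which several near 0 change sign in other fits.

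The promoters of a few subunits are shown because nuclear subunits of all complexes are known to be controlled together by factors such as NRF1 (nuclear respiratory factor 1) and ETS-family proteins. RefSeq windows (build GRCm38.p6) were found for 66 of the 80 nuclear-encoded subunits, and the search covered 250 bases before to 50 after each start, on both strands. The first 4 sequences are the upstream windows that hold the NRF1 palindrome (GCGCA followed by its reverse complement), and Uqcr11 is the complex III subunit with the largest decrease. Each is the 250 bases before the start, 5′ to 3′ on the gene's strand, with the palindrome and the ETS motif CCGGAAG (or its reverse complement) in capitals.
Atp5g2, complex V, called lower, chr15:102671048-102671297, minus strand: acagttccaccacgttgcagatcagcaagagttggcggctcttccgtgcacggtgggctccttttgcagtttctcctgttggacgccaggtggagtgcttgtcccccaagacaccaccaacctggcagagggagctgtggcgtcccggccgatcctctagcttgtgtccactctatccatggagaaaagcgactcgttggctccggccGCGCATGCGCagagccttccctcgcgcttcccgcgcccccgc
Atp5k, complex V, called lower, chr5:108434400-108434649, minus strand: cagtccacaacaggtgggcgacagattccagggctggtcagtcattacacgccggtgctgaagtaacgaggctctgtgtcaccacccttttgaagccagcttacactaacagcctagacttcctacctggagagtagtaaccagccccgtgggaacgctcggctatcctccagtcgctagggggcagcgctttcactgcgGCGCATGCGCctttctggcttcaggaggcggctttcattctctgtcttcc
Cox6a1, complex IV, called lower, chr5:115348959-115349208, minus strand: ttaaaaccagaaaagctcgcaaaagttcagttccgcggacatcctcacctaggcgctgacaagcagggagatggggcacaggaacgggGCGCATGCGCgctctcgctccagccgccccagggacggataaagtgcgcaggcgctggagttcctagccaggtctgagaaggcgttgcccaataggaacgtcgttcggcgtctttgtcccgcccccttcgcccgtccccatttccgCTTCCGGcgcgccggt
Ndufa11, complex I, not called, chr17:56717512-56717761, plus strand: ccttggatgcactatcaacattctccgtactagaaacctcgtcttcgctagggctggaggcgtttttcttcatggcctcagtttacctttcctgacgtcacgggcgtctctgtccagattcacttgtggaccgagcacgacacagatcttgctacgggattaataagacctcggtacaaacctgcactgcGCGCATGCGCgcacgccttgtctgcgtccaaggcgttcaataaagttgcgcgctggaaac
Uqcr11, complex III, called lower, chr10:80406822-80407071, minus strand: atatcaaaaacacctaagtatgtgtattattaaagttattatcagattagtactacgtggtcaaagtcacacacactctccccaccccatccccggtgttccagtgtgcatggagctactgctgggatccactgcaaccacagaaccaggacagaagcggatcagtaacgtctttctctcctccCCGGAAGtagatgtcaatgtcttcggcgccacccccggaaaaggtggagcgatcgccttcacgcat

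The NRF1 palindrome begins at -42 from the start in Atp5g2, -50 in Atp5k, -162 in Cox6a1 and -60 in Ndufa11. It also occurs just after the start of Uqcrc1, a core-protein gene of complex III that was not called. These 5 subunits make 7.58% of the 66 with a window, beside 1.07% of 27025 genes with a window and 2.28% of the 10671 of these that were tested. By call, 3 of 27 subunits called lower and 2 of 39 not called held it. Its shortened form GCGCATGC, which every palindrome contains, was in 10 subunits (15.2%, against 3.05% of all genes and 5.86% of the genes tested), 6 of them called lower and 4 not. The ETS motif CCGGAAG was in 17 subunits (25.8%, against 9.93% of all genes and 19.5% of the genes tested), 7 called lower and 10 not. The YY1 motif AAGATGGC was in 10 subunits (15.2%, against 3.19% of all genes and 5.13% of the genes tested), of which 1 was called lower and 9 were not. The ERR motif TCAAGGTCA was in 2 subunits (3.03%, against 0.466% and 0.356%), and the core of the interferon-stimulated response element (GAAA, any 2 bases, GAAA) in 2 (3.03%, against 3.99% and 3.61%). A match describes the letters of the window only.

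In complex I, which takes electrons from NADH, 12 of 36 nuclear-encoded subunits fell and none rose, with a median log2 fold change of -0.24. The nuclear core subunits, which hold the flavin and iron-sulfur centres, gave 4 lower of 7, and the supernumerary subunits, which surround the core, 8 lower of 29. Ndufv3 (chr17:31520115-31531331, plus strand), a supernumerary subunit beside the NADH-binding module, had the largest change of the complex. Its level was 62.7, 61.0 and 52.5 CPM in CRISPRa (replicates 2, 3 and 5, the order used throughout) and 88.5, 85.0 and 107 CPM in no sgRNA (replicates 2, 3 and 4). The groups did not overlap, and Ndufv3 fell by 0.67 on the log2 scale (SE 0.09, edgeR adjusted p 0.000202), a difference of 37.1%. Ndufb11 (chrX:20615326-20617619, minus strand), a membrane-arm subunit, was at 46.2, 47.1 and 45.01 CPM in CRISPRa and 63.5, 67.7 and 77.0 CPM in no sgRNA. All CRISPRa libraries were again below the controls, and Ndufb11 fell by 0.59 on the log2 scale (SE 0.08, edgeR adjusted p 0.000192). Of the 50-base words of Ndufb11 transcripts, 17.5% also occur in other genes, and 12.9% of its exonic bases overlap a gene on the opposite strand, so its level is uncertain to that extent.

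The supernumerary subunits Ndufa6 and Ndufb10 both fell, by 0.41 on the log2 scale each (edgeR adjusted p 0.000879 and 0.0066). Ndufa6 was at 73.4, 67.0 and 72.3 CPM against 91.7, 93.6 and 96.6 CPM, and Ndufb10 at 50.7, 49.8 and 45.1 CPM against 56.8, 63.6 and 73.4 CPM. The groups of both genes were separate, and no-sgRNA replicate 4 was the highest library for each. Another 7 that fell were Ndufv2, Ndufs3 and Ndufs7 of the core and Ndufa2, Ndufa5, Ndufa8 and Ndufb5, with log2 fold changes from -0.44 for Ndufa2 to -0.29 for Ndufb5; these 7 were named after their values were seen. Of the 7, Ndufv2 alone was called in all 6 fits without a library. The others lost the call in 2 to 5 of them, at edgeR adjusted p-values of at most 0.181 (Ndufb5 without CRISPRa replicate 3). With the length trend of each library removed, Ndufa2, Ndufa5, Ndufa8 and Ndufs3 also lost it (edgeR adjusted p from 0.0621 to 0.155). Among subunits that were not called, also named after their values were seen, Ndufs1, the largest core subunit, was at 88.6 ± 5.63 CPM in CRISPRa and 87.6 ± 3.85 CPM in no sgRNA (SD, n = 3). Ndufa9 was at 61.1 ± 4.84 and 61.5 ± 1.88 CPM, and Ndufab1, the mitochondrial acyl carrier protein, at 41.3 ± 2.62 and 41.5 ± 2.19 CPM. None of the 8 complex I assembly factors (Ndufaf genes) passed, with log2 fold changes from -0.37 to 0.02.

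In complex II, which also works in the tricarboxylic acid cycle, none of the 4 subunits passed, and their median log2 fold change was -0.07. Sdhb (chr4:140961203-140979193, plus strand), the iron-sulfur subunit and the highest of the complex per length at 83.2 RPKM (CPM divided by the summed exonic length in kilobases), was at 179, 182 and 192 CPM in CRISPRa and 182, 184 and 198 CPM in no sgRNA. Its groups overlapped (log2 fold change -0.03, SE 0.06, edgeR adjusted p 0.818). Sdhd (chr9:50596357-50603812, minus strand), a membrane anchor, was at 77.2, 75.7 and 83.1 CPM in CRISPRa and 83.3, 91.0 and 93.0 CPM in no sgRNA. The CRISPRa libraries of Sdhd were all below the controls, by a narrow margin between CRISPRa replicate 5 and no-sgRNA replicate 2, and its log2 fold change of -0.18 (SE 0.07) did not pass (edgeR adjusted p 0.0980). The flavoprotein gene Sdha and the anchor Sdhc had log2 fold changes of -0.10 and -0.04. The 4 complex II assembly factors, of which Sdhaf1 was at 1.09 ± 0.376 and 1.62 ± 0.601 CPM (SD, n = 3), had log2 fold changes from -0.57 to -0.07 and none was called. Of the exonic bases of Sdhaf1, 69.6% overlap a gene on the opposite strand.

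In complex III, 4 of the 8 nuclear-encoded subunits among the members fell, and the median was -0.33. Uqcr11 (chr10:80402997-80406830, minus strand), a small supernumerary subunit, was at 14.5, 15.8 and 14.9 CPM in CRISPRa and 21.7, 30.6 and 24.5 CPM in no sgRNA. Every CRISPRa library was below every control, and Uqcr11 fell by 0.76 on the log2 scale (SE 0.12, edgeR adjusted p 0.000699), the largest decrease of a nuclear subunit outside complex IV. Uqcrh (chr4:116066965-116075071, minus strand), the acidic hinge protein that contacts cytochrome c1, was at 38.1, 39.5 and 34.8 CPM in CRISPRa and 54.0, 55.6 and 62.0 CPM in no sgRNA. The groups were again separate, and Uqcrh fell by 0.61 on the log2 scale (SE 0.08, edgeR adjusted p 0.000172). Uqcr10 (chr11:4701973-4704342, minus strand), another small subunit and the highest of the complex per length at 89.6 RPKM, was at 43.2, 41.9 and 43.4 CPM in CRISPRa and 57.8, 60.6 and 67.0 CPM in no sgRNA. Its CRISPRa libraries were close together and below the controls, and Uqcr10 fell by 0.53 on the log2 scale (SE 0.08, edgeR adjusted p 0.000334). Uqcrfs1, the Rieske iron-sulfur protein and a catalytic subunit, was at 94.7, 97.9 and 99.5 CPM in CRISPRa and 119, 121 and 137 CPM in no sgRNA, and fell by 0.37 on the log2 scale (edgeR adjusted p 0.00204). The core-protein genes Uqcrc1 and Uqcrc2, named after their values were seen, had overlapping groups, at 130 ± 6.41 and 134 ± 10.2 CPM for Uqcrc1 and 125 ± 1.71 and 131 ± 6.56 CPM for Uqcrc2 (SD, n = 3). The median over the 9 subunits among the members, mt-Cytb included, was -0.30, and was -0.13 without no-sgRNA replicate 4. The name rule leaves out Cyc1, the cytochrome c1 gene of complex III, which is counted below among other electron carriers. Cyc1, named after its values were seen, was at 187 ± 12.5 and 206 ± 7.04 CPM (SD, n = 3). It was not called (log2 fold change -0.14, SE 0.07, edgeR adjusted p 0.161).

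In complex IV, which reduces oxygen, 10 of 15 nuclear-encoded subunits fell, and the median was -0.31. The largest decreases were those of 2 alternative isoforms. Cox4i2 (chr2:152754173-152765037, plus strand), an isoform of subunit 4 known for its induction by low oxygen, was at 48.0, 46.1 and 26.4 CPM in CRISPRa and 73.9, 79.3 and 94.2 CPM in no sgRNA. The groups did not overlap, CRISPRa replicate 5 was the lowest library, and Cox4i2 fell by 1.04 on the log2 scale (SE 0.16, edgeR adjusted p 0.000526). Cox7a1 (chr7:30184144-30186078, plus strand), the isoform of subunit 7A best known from heart and skeletal muscle, was at 11.4, 9.25 and 4.44 CPM in CRISPRa and 15.1, 18.1 and 25.1 CPM in no sgRNA. CRISPRa replicate 5 was again the lowest and all CRISPRa libraries were below the controls, and Cox7a1 fell by 1.21 on the log2 scale (SE 0.25, edgeR adjusted p 0.00406). Without CRISPRa replicate 5 both genes were still called, as they were with each other library left out. The widespread isoforms had smaller log2 fold changes, and the difference from their partners was not tested. Cox4i1 was at 252, 248 and 269 CPM against 286, 300 and 317 CPM (log2 fold change -0.23, SE 0.06, edgeR adjusted p 0.0208), and Cox7a2 was at 44.7, 41.6 and 46.5 CPM against 53.8, 64.1 and 67.5 CPM (log2 fold change -0.48, SE 0.09, edgeR adjusted p 0.00192). Both fell with separate groups. The call of Cox4i1 was lost without CRISPRa replicate 2 (edgeR adjusted p 0.1), CRISPRa replicate 3 (0.120) and no-sgRNA replicate 3 (0.0645), and that of Cox7a2 in no such fit. With the length trend of each library removed, Cox4i1 was at -0.14 and no longer called (edgeR adjusted p 0.115), while Cox4i2, Cox7a1 and Cox7a2 stayed called.

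Per length, Cox4i2 made 16.2 to 27.3% of the summed level of Cox4i1 and Cox4i2 in CRISPRa and 33.7 to 36.9% in no sgRNA. Cox7a1 made 14.4 to 31.1% of its pair with Cox7a2 in CRISPRa and 33.1 to 39.7% in no sgRNA. The muscle isoform Cox6a2 made 5.72 to 7.31% of its pair in CRISPRa and 4.33 to 4.50% in no sgRNA. Cox6a1 fell (log2 fold change -0.31, edgeR adjusted p 0.0114), while Cox6a2, at 6.82, 6.74 and 9.06 CPM against 5.61, 6.84 and 6.76 CPM, was not called (log2 fold change 0.24, SE 0.17). For Cox7b2, a pair added after its values were seen, the share was 43.4 to 49.0% in CRISPRa and 40.7 to 42.8% in no sgRNA, with Cox7b lower (log2 fold change -0.29, edgeR adjusted p 0.0289) and Cox7b2 at -0.06 and not called. Of the alternative isoforms of these 4 pairs, Cox4i2 and Cox7a1 fell and Cox6a2 and Cox7b2 did not pass the test; the shares were not tested. The call of Cox6a1 was lost without CRISPRa replicate 2 (edgeR adjusted p 0.0522) and no-sgRNA replicate 3 (0.0636), and that of Cox7b without all but CRISPRa replicate 5 and no-sgRNA replicate 2 (up to 0.111). Both calls were also lost with the length trend of each library removed, where Cox6a1 was at -0.19 (edgeR adjusted p 0.0978) and Cox7b at -0.18 (0.141).

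**Figure D2:**
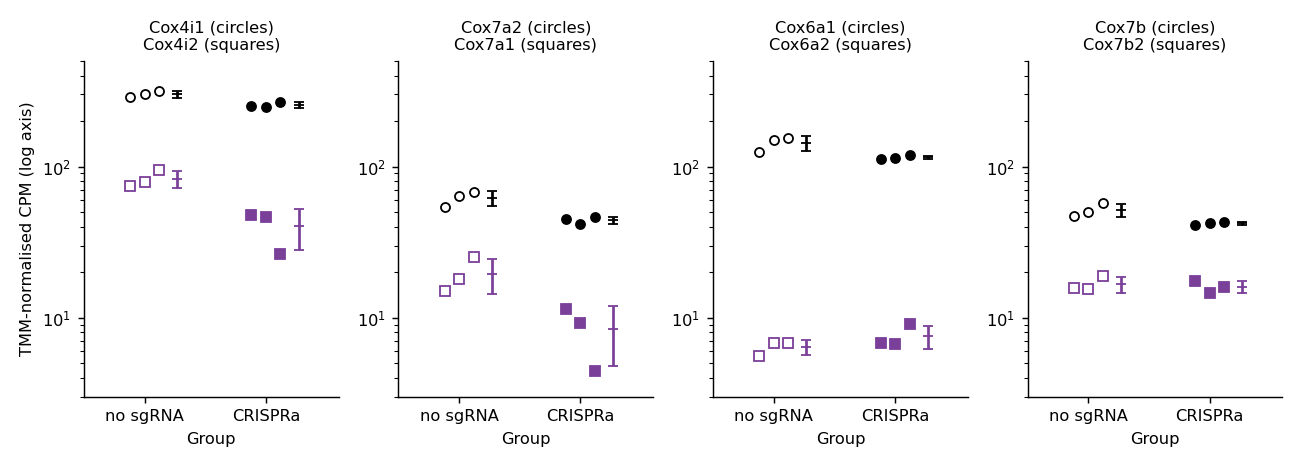
TMM-normalised CPM (log axis) of 4 isoform pairs of complex IV in each library, open symbols for no sgRNA and filled for CRISPRa, with the mean and SD of each group as a bar to the right. The squares of Cox4i2 and Cox7a1 drop between the groups, from 82.5 to 40.2 CPM and from 19.4 to 8.38 CPM on average, while those of Cox6a2 and Cox7b2 overlap.

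Cox8a (chr19:7215153-7217616, minus strand), a small subunit and the highest nuclear subunit of complex IV per length at 303 RPKM, was at 171, 160 and 167 CPM in CRISPRa and 191, 208 and 229 CPM in no sgRNA. The groups were separate, and Cox8a fell by 0.34 on the log2 scale (SE 0.07, edgeR adjusted p 0.00459). Cox7c, at 156, 138 and 142 CPM against 166, 183 and 200 CPM, fell by 0.33 on the log2 scale (edgeR adjusted p 0.00774), and 22.1% of its 50-base words occur in other genes. Cox6b1, which faces the intermembrane space, and Cox5b also fell, with log2 fold changes of -0.31 and -0.36; Cox5b was named after its values were seen. Leaving out CRISPRa replicate 3 took Cox7c to the threshold (edgeR adjusted p 0.05005). Cox6b1 kept its call only when CRISPRa replicate 5 or no-sgRNA replicate 2 was the library left out, with an adjusted p otherwise of up to 0.113, and lost it with the length trend removed (log2 fold change -0.18, edgeR adjusted p 0.154). The log2 fold changes of Cox8a and Cox7c were then -0.21 and -0.22, and both stayed called. Ndufa4, first assigned to complex I and since placed in complex IV, was at 84.0, 79.7 and 83.0 CPM against 85.0, 85.9 and 95.7 CPM. Its groups were separate, by about 1 CPM between the nearest libraries, and it was not called (log2 fold change -0.11, SE 0.07, edgeR adjusted p 0.307). Cox5a was not called, at 53.5 ± 5.64 and 54.2 ± 4.04 CPM (SD, n = 3). The supercomplex factor Cox7a2l fell by 0.25 on the log2 scale (SE 0.08, edgeR adjusted p 0.0329), and kept its call only without no-sgRNA replicates 2 or 3, with an adjusted p otherwise of up to 0.111, and lost it with the length trend removed (log2 fold change -0.15, edgeR adjusted p 0.136). Of its 50-base words, 13.8% also occur in other genes.

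In complex V, 5 of 17 nuclear-encoded subunits fell and all 17 had a negative log2 fold change, with a median of -0.19. Atp5k (chr5:108433244-108434448, minus strand), the small membrane subunit e, was at 16.2, 16.0 and 13.8 CPM in CRISPRa and 17.8, 23.0 and 20.7 CPM in no sgRNA. The CRISPRa libraries were all lower, and Atp5k had the largest change of the complex at -0.42 (SE 0.12, edgeR adjusted p 0.0253), a call kept only without CRISPRa replicate 2 or no-sgRNA replicate 2 (adjusted p otherwise up to 0.130) and lost with the length trend removed (0.0833). Atp5d (chr10:80138632-80145818, plus strand), the delta subunit of the F1 part, was at 251, 242 and 240 CPM in CRISPRa and 273, 306 and 323 CPM in no sgRNA, and fell by 0.30 on the log2 scale (SE 0.07, edgeR adjusted p 0.00707). The catalytic beta subunit Atp5b (chr10:128083273-128090391, plus strand) had the highest level per length of all nuclear subunits, at 423 RPKM. It was at 1681, 1716 and 1807 CPM in CRISPRa and 1772, 1830 and 1949 CPM in no sgRNA, so that the groups overlapped and it was not called (log2 fold change -0.09, SE 0.06, edgeR adjusted p 0.336). The 3 genes Atp5g1, Atp5g2 and Atp5g3 encode the same mature subunit c of the rotor ring. Atp5g2 (189, 178 and 168 CPM against 204, 213 and 243 CPM) fell by 0.30 on the log2 scale (edgeR adjusted p 0.0106) and Atp5g3 (120, 119 and 120 CPM against 132, 155 and 143 CPM) by 0.26 (edgeR adjusted p 0.0160), the latter call being lost without CRISPRa replicates 2 (0.0608) or 3 (0.0706) or no-sgRNA replicate 3 (0.0974). Atp5g1 (65.9, 63.5 and 72.2 CPM against 70.6, 78.7 and 73.4 CPM) was not called (log2 fold change -0.14, edgeR adjusted p 0.219), and its groups overlapped. Atp5g2 shares 38.3% of its 50-base words with other genes and is uncertain for that reason. The remaining subunit called lower was the gamma subunit Atp5c1, at -0.27.

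The share of subunits called lower thus ranged from 0 of 4 in complex II to 10 of 15 in complex IV, with 12 of 36 in complex I, 4 of 8 in complex III and 5 of 17 in complex V. The median summed exonic length of these subunits was 944 bases in complex IV, 1300 in III, 1643.5 in I, 2259 in V and 2744.5 in II. With the length trend of each library removed, the complexes lay closer together. Their medians over subunits of both genomes were then -0.11 (I), -0.04 (II), -0.17 (III), -0.18 (IV) and -0.11 (V). The difference between complexes, and the part of length in it, was not tested. Per length, the median level of the nuclear subunits was 25.5 RPKM in complex I, 63.5 in II, 56.9 in III, 61.9 in IV and 48.5 in V, with extremes of 0.528 RPKM for Ndufb2 and 423 RPKM for Atp5b. These levels divide by the summed exonic length, 5628 bases for Ndufb2 and 4237 for Atp5b. The length of the transcripts present in the cells was not measured, so the levels are uncertain to that extent.

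The mitochondrially encoded mRNAs together made 1.25, 1.21 and 1.26% of all counts in CRISPRa and 1.18, 1.00 and 1.10% in no sgRNA. Nuclear-encoded subunits made 0.802, 0.791 and 0.825% against 0.866, 0.911 and 0.955%. The ratio of the 2 summed levels was 1.56, 1.53 and 1.52 in CRISPRa and 1.36, 1.10 and 1.15 in no sgRNA. The ratio was higher in every CRISPRa library, at 1.53 ± 0.0186 against 1.203 ± 0.137 (SD, n = 3). The mitochondrial sum rests on few genes, as mt-Co1 alone made 46.8% of it.

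**Figure D3:**
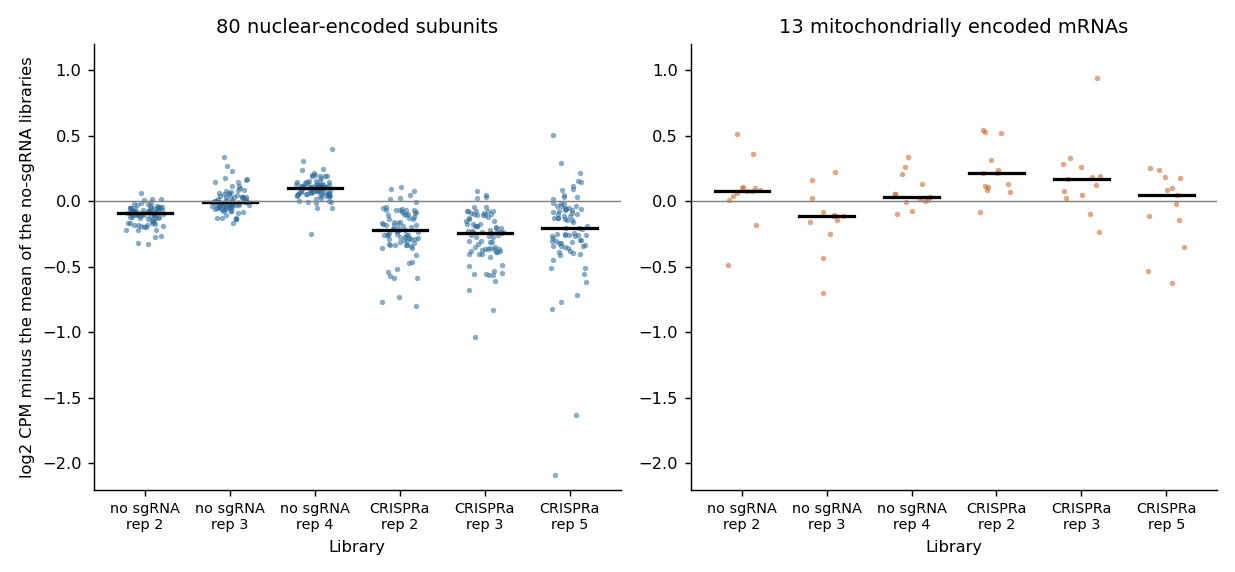
Log2 CPM of each nuclear-encoded subunit (left) and each mitochondrially encoded mRNA (right) in each library, relative to its mean in the no-sgRNA libraries, with 0.05 added to the CPM and a black line for the median. The nuclear medians lie between -0.24 and -0.21 in the CRISPRa libraries and between -0.09 and 0.10 in the no-sgRNA libraries, and the mitochondrial medians between 0.05 and 0.22 and between -0.11 and 0.08.

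Of the mitochondrially encoded mRNAs, mt-Cytb (chrM:14145-15288, plus strand), the cytochrome b of complex III, was at 2201, 2124 and 2206 CPM in CRISPRa and 2010, 1726 and 1884 CPM in no sgRNA. All CRISPRa libraries were above the controls, of which replicate 3 was the lowest, and mt-Cytb rose by 0.22 on the log2 scale (SE 0.07, edgeR adjusted p 0.0327). The call of mt-Cytb was lost without CRISPRa replicate 2 (edgeR adjusted p 0.0884), without CRISPRa replicate 3 (0.0645), without no-sgRNA replicate 3 (0.169) and after removal of the GC trend of each library (0.0941), and its log2 fold change ran from 0.15 to 0.33 over the alternatives. The largest catalytic subunit of complex IV, mt-Co1 (chrM:5328-6872, plus strand), was at 5865, 5675 and 6004 CPM in CRISPRa and 5398, 4520 and 5250 CPM in no sgRNA. Its groups were separate in the same way, and it narrowly missed the threshold (log2 fold change 0.21, SE 0.07, edgeR adjusted p 0.0504), which it passed in 12 of 15 alternatives with no library left out in turn.

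The complex I genes mt-Nd1, mt-Nd2, mt-Nd4 and mt-Nd5 encode subunits of its membrane arm. mt-Nd2 was at 749, 721 and 723 CPM against 711, 630 and 708 CPM, mt-Nd5 at 976, 987 and 1029 CPM against 979, 842 and 901 CPM, mt-Nd4 at 817, 780 and 809 CPM against 797, 710 and 753 CPM, and mt-Nd1 at 1540, 1472 and 1430 CPM against 1527, 1341 and 1485 CPM. Only mt-Nd2 of these 4 had separate groups, and none passed the test, with log2 fold changes of 0.10, 0.14, 0.09 and 0.03. mt-Nd6, the one mRNA read from the opposite strand of the mitochondrial genome, was at 230, 228 and 275 CPM against 245, 221 and 267 CPM, with a log2 fold change of 0.00 (SE 0.08). Whether counting used the strand is not given in the sources used here.

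The 13 mRNAs fell into high and low levels by their place on the mitochondrial genome. The low 6 lie next to each other, between bases 7013 and 10173: mt-Co2, mt-Atp8, mt-Atp6, mt-Co3, mt-Nd3 and mt-Nd4l. Their levels per length were 3.44 RPKM (mt-Nd4l) to 16.4 RPKM (mt-Co2), against 471 RPKM (mt-Nd6) to 3529 RPKM (mt-Co1) for the other 7. For mt-Co2, mt-Atp6, mt-Co3, mt-Nd3 and mt-Nd4l, 98 to 100% of the 50-base words of the transcript also occur in another annotated gene. The copy that shares these words lies for each of the 5 in 1 stretch of chromosome 1 (24612407 to 24615565), and the 5 copies had 1.95 to 12.8 CPM, beside group means of 0.870 to 11.3 CPM for the 5 mitochondrial genes. mt-Co2 also shares 35.3% of its words with Gm13341 on chromosome 2, at 4.16 CPM. mt-Atp8, which lies within the low stretch, shares no word with an annotated gene, and of the high genes mt-Nd4 shares 62.2% and mt-Co1 51.1%. Only annotated transcripts were searched, so an unannotated copy of mt-Atp8 would not be seen. On chromosome 1 the copy of mt-Atp6 ends at base 24614651 and that of mt-Co2 starts at base 24614885, with no annotated copy of mt-Atp8 found between them. The authors' treatment of reads that map to several places is not given in the sources used here, so the levels of these genes are uncertain and the part of the copies in them was not tested. The 6 low genes had log2 fold changes from -0.02 (mt-Nd3) to 0.43 (mt-Nd4l), with standard errors from 0.16 to 0.45, and differences of the size seen for mt-Cytb were not detectable at these counts.

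**Figure D4:**
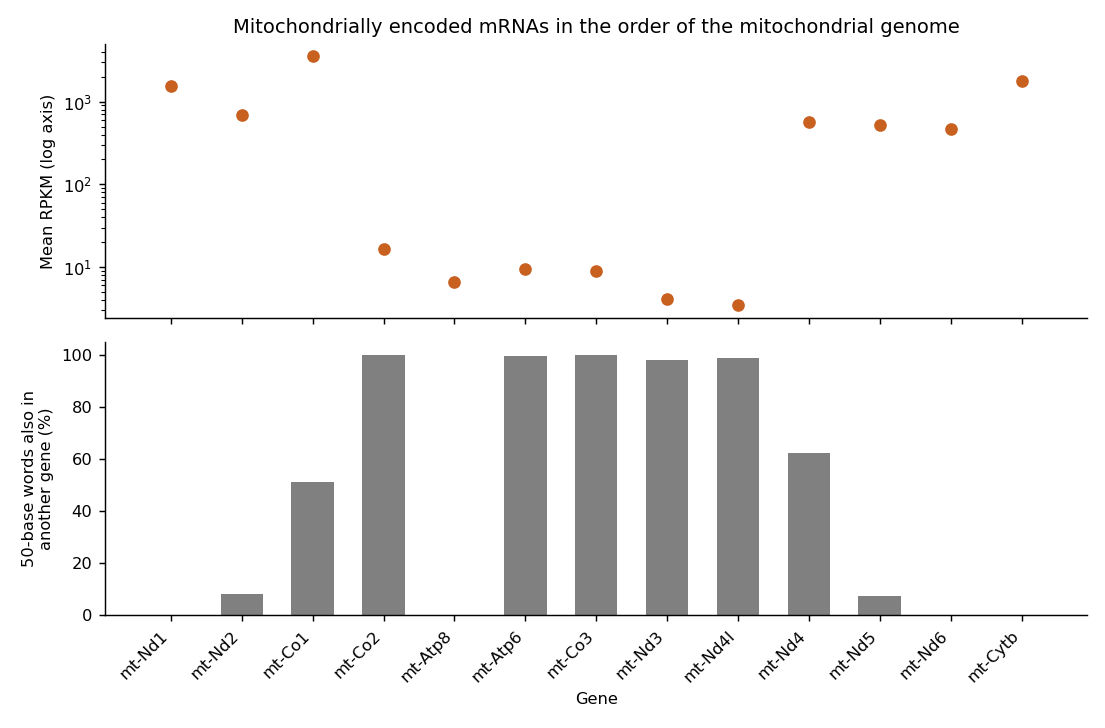
Mean level per length (RPKM, log axis, upper panel) and the percentage of 50-base words shared with another annotated gene (bars, lower panel) for the 13 mitochondrially encoded mRNAs in the order of the mitochondrial genome. The 6 genes from mt-Co2 to mt-Nd4l lie at 3.44 to 16.4 RPKM, and 5 of them share 98 to 100% of their words.

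Many of the subunits have short transcripts, and fold changes in these libraries varied with summed exonic length, so subunits were set beside all genes of like length. Under 1000 bases, 12 of 21 nuclear-encoded subunits fell, with a median log2 fold change of -0.31, while 5.11% of all such genes were called lower and their median was -0.09. From 1000 to under 2000 bases it was 13 of 28 subunits (median -0.26), beside 11.2% of all genes (median -0.09). From 2000 to under 4000 bases it was 5 of 20 (median -0.15), beside 10.8% (median -0.04). At 4000 or more bases 1 of 11 subunits fell (median -0.06), beside 8.51% of all genes (median 0.03). The bins match genes on length and not on level, which also bears on the share called. The nuclear-encoded subunits had a median of 61.6 CPM, and over all lengths 13.2% of genes with a mean of at least 10 CPM were lower. With the length trend of each library removed, 22 of the 80 nuclear-encoded subunits were lower and none higher (median -0.15), beside 9.1% of all genes lower and 9.12% higher, and 5 mitochondrially encoded mRNAs were higher (mt-Co1, mt-Cytb, mt-Nd2, mt-Nd4 and mt-Nd5). With the GC trend of each library removed, an alternative chosen after seeing the data, 32 nuclear-encoded subunits were lower, beside 1338 of all 15117 genes. No mitochondrially encoded mRNA was then called, and their median turned to -0.02. The direction of the mitochondrial mRNAs as a group therefore depended on that setting, and that of the nuclear subunits did not.

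**Figure D5:**
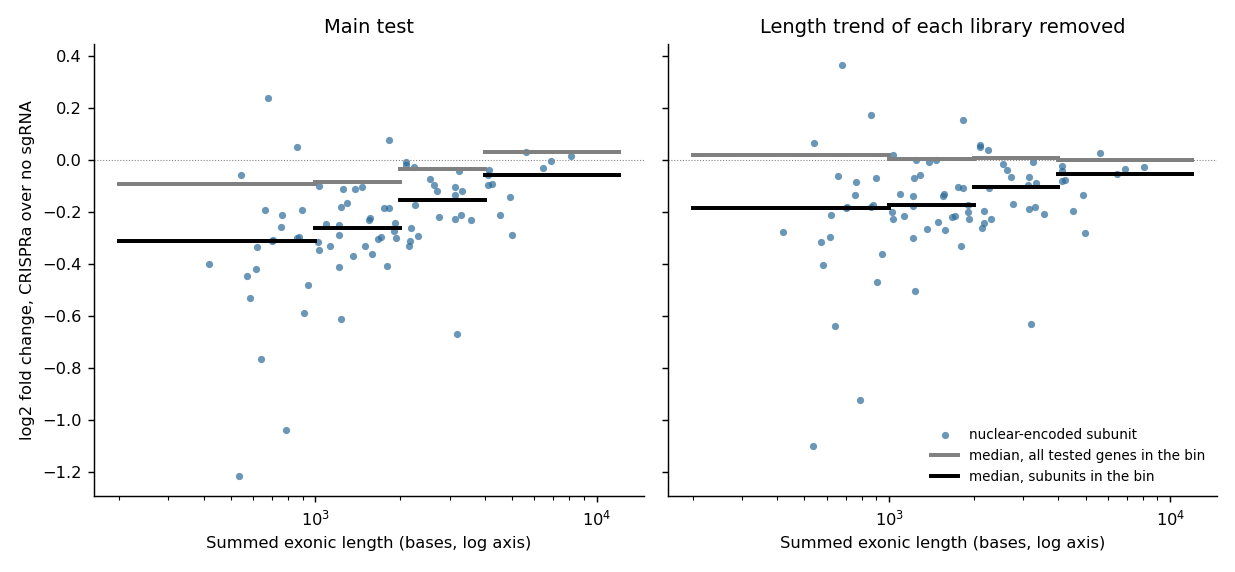
Log2 fold change of each nuclear-encoded subunit against its summed exonic length (log axis), in the main test (left) and with the length trend of each library removed (right), with medians of the subunits (black) and of all genes tested (grey) in 4 bins of length. The subunit median lies below that of all genes in each bin, for example at -0.31 against -0.09 under 1000 bases in the main test.

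In the authors' deposited table of fold changes, which by its name covers 8 samples and so shares the libraries analysed here, 37 of the 80 nuclear-encoded subunits were lower and none higher at an adjusted p under 0.05, beside 9.26% of its 20581 genes lower and 9.94% higher. The direction of that table is not stated and was read as CRISPRa over no sgRNA. Read so, 28 of the 31 subunits called lower from the counts were lower in the authors' deposited table too. Its log2 fold changes were negative for 73 of the 80 subunits, beside 75 from the counts. Read the other way, its 37 subunits would be higher and none lower, opposite to the counts of the libraries that it shares. By complex, the authors' deposited table had 14 nuclear subunits lower in complex I, 0 in II, 5 in III, 10 in IV and 8 in V. Of the mitochondrially encoded mRNAs it had 5 higher, mt-Cytb (log2 fold change 0.25), mt-Co1 (0.25), mt-Nd5 (0.19), mt-Nd4 (0.14) and mt-Co3 (0.40), all in the authors' deposited table.

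Other mitochondrial genes were counted on lists of their own, against the same 9.25% lower and 9.47% higher over all genes. Of 77 genes with symbols of mitochondrial ribosomal proteins (Mrpl or Mrps and a number), 11 fell and none rose, with a median of -0.10. Proteins of this ribosome translate the mitochondrial mRNAs. The list was taken by symbol, and whether each gene on it belongs to the ribosome was not checked. Removal of the length trend of each library gave 7 lower and 1 higher, with a median of -0.06. In that fit 9.1% of all genes were lower and 9.12% higher, so the share of these 77 called lower was about that of all genes. The 3 with the smallest adjusted p were Mrpl14 (log2 fold change -0.69, edgeR adjusted p 0.00125), Mrps36 (-0.46) and Mrpl54 (-0.44). Of 20 genes of the tricarboxylic acid cycle and pyruvate dehydrogenase, 7 fell and 1 rose, with a median of -0.12. Pdk1, the kinase that inhibits pyruvate dehydrogenase, was at 86.8, 87.7 and 50.3 CPM in CRISPRa and 133, 121 and 166 CPM in no sgRNA, and fell by 0.90 on the log2 scale (SE 0.16, edgeR adjusted p 0.00140). Fh1 (fumarase) fell by 0.40 on the log2 scale, and Ogdh (oxoglutarate dehydrogenase) rose by 0.36. Of this list, 6 genes were lower and 2 higher with the length trend removed. The calls of Mrpl14, Mrps36, Pdk1, Fh1 and Ogdh held with each library left out. That of Mrpl54 was lost without no-sgRNA replicate 4 (edgeR adjusted p 0.0676). Among the other calls on these lists, only that of Idh3g held in all 6 such fits, and that of Mrps9 held in 0.

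Of 31 other electron carriers and assembly factors of complexes III to V, 2 fell and 1 rose, with a median of -0.03. Higd1a, a small inner-membrane protein known to bind complexes III and IV, was at 46.2, 48.8 and 31.4 CPM in CRISPRa and 66.2, 74.6 and 96.0 CPM in no sgRNA, and fell by 0.91 on the log2 scale (SE 0.15, edgeR adjusted p 0.000714). CRISPRa replicate 5 was the lowest library for Higd1a and Pdk1, as it was for Cox4i2 and Cox7a1, and the groups of all 4 were separate. Cox14, an assembly factor of complex IV, fell by 0.38 on the log2 scale, and the copper chaperone Cox17 rose by 0.61 (edgeR adjusted p 0.0180). The calls of Cox14 and Cox17 were lost in 4 and 3 of the 6 fits without a library (edgeR adjusted p up to 0.113 for Cox14 without no-sgRNA replicate 4 and 0.0731 for Cox17 without CRISPRa replicate 2). Of 13 further complex I assembly factors, Tmem186 alone was called (log2 fold change -0.34, edgeR adjusted p 0.0464). With the length trend removed, Tmem186 kept its sign but was not called (log2 fold change -0.31, edgeR adjusted p 0.0628). In that fit 2 genes named after their values were seen were called higher, Tmem126a (log2 fold change 0.40, edgeR adjusted p 0.0305) and Dmac2 (0.35, edgeR adjusted p 0.0430). With no such removal these were at 0.35 (edgeR adjusted p 0.0546) and 0.31 (0.0694). Of the other electron carriers and assembly factors, 2 were lower and 2 higher with the length trend removed.

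Of 31 genes of mitochondrial transcription and RNA processing, 2 fell and 1 rose, with a median of -0.02. Pnpt1, a mitochondrial polynucleotide phosphorylase that degrades RNA, rose by 0.85 on the log2 scale, at 98.7, 108 and 115 CPM in CRISPRa against 60.7, 56.2 and 60.9 CPM in no sgRNA (edgeR adjusted p 1.7e-06). Grsf1, which binds mitochondrial RNA in granules, fell by 0.35, and Hsd17b10, a subunit of mitochondrial RNase P, by 0.25. Of 9 regulators of mitochondrial biogenesis, 1 was called, Nfe2l2, which rose by 0.25 on the log2 scale (edgeR adjusted p 0.0432). The calls of Hsd17b10, Nfe2l2 and Tmem186 each held in 1 of the 6 fits without a library (adjusted p up to 0.090, 0.143 and 0.133), while those of Pnpt1 and Grsf1 held in all. With the length trend removed, 1 gene of mitochondrial transcription and RNA processing was lower and 2 were higher, Hsd17b10 was not called (edgeR adjusted p 0.166), and Nfe2l2 was still the 1 regulator called.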

How the data were processed

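Poly(A) RNA of Neuro2a cells was sequenced, and samples were grouped by their titles. STAR 2.5.1b, featureCounts, DESeq2 and R 4.1.2 with build mm10 are named in the submitters' processing notes. Options and strandedness are not given in the sources used here. The authors deposited whole-number counts per gene for 6 of the 8 samples, with summed exon length in bases per the file headers. The remaining samples, replicate 1 of CRISPRa and replicate 5 of no sgRNA, are not analysed here. The authors' deposited table of their own comparison gives a mean normalized count (a signal), a log2 fold change with its SE, a test score and p-values, per the file headers.

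From the counts, edgeR 4.0.16 (R 4.3.3; TMM, filterByExpr, quasi-likelihood test, Benjamini-Hochberg over 15117 genes, adjusted p under 0.05) compared 3 CRISPRa with 3 no-sgRNA libraries, without a block, and was tested on simulated data. CPM are TMM-normalised and RPKM also divide by exon length. The alternatives were 4 other scalings, 2 other filters, DESeq2 1.42.0, limma-voom (limma 3.58.1), other thresholds, each library left out, removal of each library's trend with length or GC content (lowess, span 0.2) and the replicate number as a block. Coordinates are on GRCm38, from the deposited count table; 106 of the 109 members have the same position in GENCODE M21.

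The members, gene lists and tests were chosen with earlier results of these data known. Named with values are the 15 called members of smallest adjusted p in each direction, all mitochondrial mRNAs, in each complex the nuclear subunit highest in RPKM and that of largest change, isoform families, the members nearest the CPM threshold, and up to 3 called genes of each list. The text says which others were named after their values were seen. Some genes that this rule takes in are counted but not reported by name.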

Additional observations from a re-analysis of the deposited data

How the results depend on the processing

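The decrease of nuclear-encoded subunits kept its direction in every alternative run, with 16 to 43 called lower, none higher, and medians from -0.28 to -0.13. The 16 and 43 were at an adjusted p under 0.01 and under 0.1, where 654 and 1956 of all 15117 genes were lower. Counts of members called were 33 in the test reported, beside 2829 of all 15117 genes. At an adjusted p under 0.01 they were 16 (16 nuclear-encoded subunits, 0 mitochondrial mRNAs), beside 1417 of all genes. With 1 library left out, 20 to 36 members were called (20 to 33 nuclear-encoded subunits), beside 1987 to 2518 of all genes. The 2 fits furthest below were those without CRISPRa replicate 3 (20, beside 2026 of 15514) and without no-sgRNA replicate 3 (21, beside 1987 of 15554). The count over all genes thus moved with the setting too. Mitochondrial mRNAs called numbered 2, with mt-Co1 added to mt-Cytb, under RLE, upper-quartile and library-size scaling, scaling without the mitochondrial genes, both other filters, DESeq2, limma-voom and an adjusted p under 0.1, and 0 to 2 with 1 library left out. From RLE scaling to an adjusted p under 0.1 in that list, 2788 to 3855 of all genes were called. With 1 library left out the complex III median ran from -0.38 to -0.13. With the length trend removed, 5 mitochondrial mRNAs were called, and the medians were -0.15 for nuclear-encoded subunits, -0.11 for complex I and -0.17 for complex III. With the GC trend removed, 0 mitochondrial mRNAs were called and their median turned to -0.02. The cause was not tested. Under the filter of 1 CPM in 4 libraries mt-Nd4l has no value. Of the single-gene results, 551 of 629 kept their direction and call in the alternatives with no library left out in turn. Some of these used only the 4 libraries that share a number. With 1 library left out, 211 of 252 kept both.

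The labels share the numbers 2 and 3 between groups, but same-numbered libraries did not deviate together. Correlations over 15117 genes were -0.00077 and -0.027, and 0.0028 for the difference of replicates 2 and 3. Values near 0 cannot exclude a shared culture or batch, and the labels do not say whether the numbers pair libraries. With the replicate block on these 4 libraries, 42 members were called, 4 of them mitochondrial mRNAs, beside 3170 of all 15305 genes. The median of the mitochondrial mRNAs was 0.20 and that of complex III was -0.14. With a block and a group term on 4 libraries, little is left to estimate the spread. The counts called with the block are therefore not comparable with those of the main test. The same 4 libraries without the block gave 2 mitochondrial mRNAs, beside 2830 of all 15305 genes, and a complex III median of -0.13. The block with the length trend removed gave 8 mitochondrial mRNAs, beside 3332 of all 15305 genes, with the same limit. Its medians were -0.13 (nuclear-encoded subunits), 0.27 (mitochondrial mRNAs), -0.14 (complex I), -0.052 (III), -0.15 (IV) and -0.10 (V). The values of mt-Nd3 were 0.20 with the block, 0.15 without it and 0.27 with the length trend also removed, where Ndufa4 was at 0.015, Sdhb at 0.026 and mt-Nd6 at 0.058.

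Other signs that turned were those of genes near 0, none called there. For mt-Nd6 the log2 fold change was 0.0079 (RLE), 0.0023 (upper quartile), 0.017 (library size), 0.0041 (without the mitochondrial genes), 0.0052 (no filter), 0.013 (CPM filter), 0.0079 (DESeq2) and 0.13 (length). For mt-Nd3 it was 0.00044 (library size), 0.040 (limma-voom) and 0.089 (length), for mt-Co2 -0.017 (limma-voom), and for Sdhb 0.038 (length). With the GC trend removed, Sdhb was at 0.0017, mt-Atp6 at -0.049, mt-Atp8 at -0.027, mt-Co2 at -0.061, mt-Nd1 at -0.062, mt-Nd2 at -0.0075 and mt-Nd4 at -0.017. With 1 library left out, Sdhb ran from -0.051 to 0.012, mt-Atp6 from -0.011 to 0.14, mt-Atp8 from -0.10 to 0.42, mt-Co2 from -0.11 to 0.24, mt-Nd1 from -0.026 to 0.066, mt-Nd3 from -0.30 to 0.15 and mt-Nd6 from -0.086 to 0.069.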
